A study of Mus musculus with 5 samples.

Results

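miR-22-3p is the 3p arm of a single mouse miRNA gene, Mir22. Its Ago-bound target sites were taken from tables of miRNA-target interactions of the developing mouse liver, as all entries whose interaction name carries mmu-miR-22-3p. This gave 7960 of 3254259 entries over 5 tables, which lie at 5525 distinct genome positions. Ago HITS-CLIP, in which RNA is crosslinked to the Ago proteins by ultraviolet light (254 nm, 0.2 J/cm2, 3 exposures), precipitated with them and sequenced, had been applied to livers of C57BL/6 mice (C57BL/6J in the study's methods). There was 1 sample for each of the embryonic days written e12.5, e15.5 and e18.5, for day 7 after birth (P7) and for adult mice of 6 to 8 weeks. Embryonic livers were precipitated with Ago2 antibodies, whereas Ago1 antibodies were also present for P7 and adult, so that antibody and age after birth cannot be told apart. With 1 table per stage there is no replicate error, and each difference between stages is a difference between tables.

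A miRNA guides Ago to an mRNA mainly by pairing of its seed, bases 2 to 8, and the bound mRNA is then repressed or degraded. Sites are ranked by the extent of pairing. A 6mer pairs with bases 2 to 7, a 7mer-m8 also with base 8, a 7mer-A1 carries an adenosine opposite base 1, and an 8mer has both. The 3′UTR is the classical place of effective sites, while sites in the coding sequence (CDS) are in general weaker. miR-22 is made from the exon of a noncoding host transcript, is conserved among vertebrates, and is known as a regulator of heart growth, of blood cell formation and of lipid metabolism in the liver. Hdac4, Sirt1, Tet2 and Max are among its reported targets.

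The mature sequences, which set the sites that can be listed at all, are given here from RefSeq (GRCm38.p6) with the seed in capitals. Both arms come from chromosome 11 (plus strand), the 5p arm from chr11:75463734-75463755 and the 3p arm from chr11:75463772-75463793.
mmu-miR-22-3p: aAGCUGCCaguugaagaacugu
mmu-miR-22-5p: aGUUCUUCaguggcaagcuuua
mmu-miR-3966: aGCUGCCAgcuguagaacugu
No other mature mouse miRNA of the RefSeq table shared the seed of miR-22-3p. The sequence most like it was miR-3966. Aligned from base 2 of miR-22-3p, it held the same letter at 19 of 21 positions, with its own seed shifted by a single base. The number listed for miR-3966 was 42 at e12.5, 4 at P7 and 1 in the adult table, so its reads were few beside those of miR-22-3p.

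The target fragments below are printed 5′ to 3′ with the seed match in capitals, and they show the range of the sites, from 8mers in 3′UTRs to 6mers in coding sequence. They were read from the deposited duplexes, and coordinates (mm10, counted from 1) cover the bases opposite the seed.
Arrb1, 3′UTR 8mer, chr7:99601606-99601612 (+): taggtgacagttttGGCAGCTA
Erbb3, 3′UTR 8mer, chr10:128569326-128569332 (-): ggggaacatttgatGGCAGCTA
Slc2a1, 3′UTR 8mer, chr4:119136505-119136511 (+): ctctctggagcacaGGCAGCTA
Hnrnpl, 3′UTR and CDS 8mer, chr7:28820659-28820665 (+): tccactccagagcaGGCAGCTA
Slc4a1, 3′UTR 7mer-m8, chr11:102349891-102349897 (-): ctatgttaccatatGGCAGCTg
Hdac4, 3′UTR 7mer-m8, chr1:91929850-91929856 (-): gccaaactcGGCAGCTt
Ahsg, CDS 7mer-m8, chr16:22894419-22894425 (+): aaactgttctgtgaGGCAGCTg
Hnf4a, CDS 6mer, chr2:163559041-163559046 (+): tgagtctatgaaggaGCAGCTg
All 5525 positions held the 6-base core GCAGCT in the genome, and all 5525 had the seed type that the tables list.

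miR-22-3p was a minor part of the Ago-bound miRNAs at every stage. The whole number in each interaction name, read here as the number of reads of the miRNA, was 6589, 6215, 4446, 3699 and 11988 from e12.5 to adult. As a share of all miRNA reads of the table, the e12.5 value was 0.0258% (Wilson 95% interval 0.0252 to 0.0264) and the e15.5 value 0.0615% (0.0600 to 0.0631). The e18.5 value was 0.0571% (0.0555 to 0.0588), followed by 0.0307% (0.0297 to 0.0317) for P7 and 0.0523% (0.0514 to 0.0533) for adult. The e15.5, e18.5 and adult values were the higher ones of whole tables. By rank it was number 150 of 745 miRNAs, 105 of 589, 113 of 644, 131 of 743 and 73 of 585 in the same order of tables.

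The intervals cover counting error only, and the embryonic tables show a larger spread. Each of these tables consists of 2 consecutive lists of unknown origin. Per 1000000 miRNA reads, the lists gave 487 and 196 for miR-22-3p at e12.5. The pair was 630 and 611 for e15.5 and 671 and 280 for e18.5. The gap within e12.5 and within e18.5 exceeded the gaps between e15.5, e18.5 and adult, so these 3 levels cannot be placed in an order. The low level of e12.5 rests on its second list and the high level of e18.5 on its first, since the second list of e18.5 was below P7 (307).

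**Figure D1:**
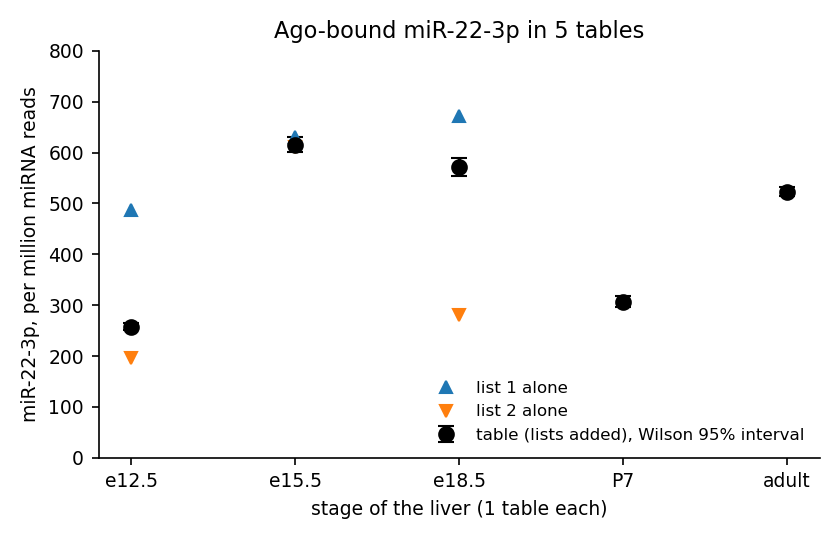
Share of miR-22-3p among the miRNA reads of each table (y axis, per 1000000; x axis, stage). Black points with Wilson 95% intervals are whole tables and run from 258 (e12.5) to 615 (e15.5), and triangles are the 2 lists of an embryonic table, which lie far apart at e12.5 (487 and 196) and e18.5 (671 and 280).

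The passenger arm was rarer at all 4 stages that list it. The e18.5 table had no entry of miR-22-5p, and its number elsewhere was 377 (e12.5), 105 (e15.5), 21 (P7) and 1333 (adult). The number of the 3p arm was 17.5, 59.2, 176 and 8.99 times as high in these 4 tables.

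Among 254 other miRNAs with at least 100 reads per 1000000 in any table, the stage profile nearest to that of miR-22-3p (Euclidean distance of centred log2 shares over the 5 tables) was that of miR-23a-3p, at a distance of 0.783. Its shares were 1402, 1763, 1596, 955 and 1785 per 1000000 from e12.5 to adult. It was followed by miR-24-3p (0.811), let-7a-5p (0.857), let-7i-5p (0.916) and miR-27a-3p (0.927). All 5 of these miRNAs were more abundant than miR-22-3p in every table.

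By number of sites miR-22-3p ranked higher than by abundance in every table (88, 88, 81, 110 and 48 from e12.5 to adult). It had 2513, 971, 861, 1559 and 1576 distinct sites. These counts depend on the lists of the embryonic tables, which alone gave 735 and 2101 sites (e12.5), 142 and 877 (e15.5) and 580 and 390 (e18.5), so that the lead of e12.5 rests on its second list. The median miRNA had 1190, 464, 380.5, 731 and 569 sites in the same tables, so that miR-22-3p had between 2.09 and 2.77 times as many. Of the 5525 distinct sites, 4262 were listed in 1 table, 801 in 2, 293 in 3, 108 in 4 and 61 in all 5. The share in at least 2 tables was 22.9%, and the median over miRNAs listed in every table and with at least 200 sites was 23.1%, so recurrence was near that of other miRNAs (188 of 390 others were lower). Among the sites seen in a single table, those of e12.5 were the largest group, with 1720, followed by adult with 939, P7 with 808, e15.5 with 441 and e18.5 with 354.

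Coding sequence held most of the sites in mRNA. Over the 5 tables, 2721 distinct sites were annotated as CDS, 1060 as 3′UTR and 201 as 5′UTR, where a site counts in each region of its transcripts. In the 5 tables from e12.5 to adult, 44.1%, 45.5%, 53.2%, 56.5% and 63.7% of the sites were in CDS, and the sites of all miRNAs were so in 34.6%, 39.2%, 40.3%, 44.8% and 52.8%. In the 3′UTR the order was turned, with 19.4%, 21.4%, 17.4%, 21.6% and 16.2% for miR-22-3p against 23.3%, 25.8%, 24.4%, 25.6% and 20.01% for all miRNAs. The Wilson intervals of miR-22-3p excluded the values of all miRNAs in both regions and at each of the 5 stages. Intron sites were also fewer than for all miRNAs in every table (13.1% to 21.8%).

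**Figure D2:**
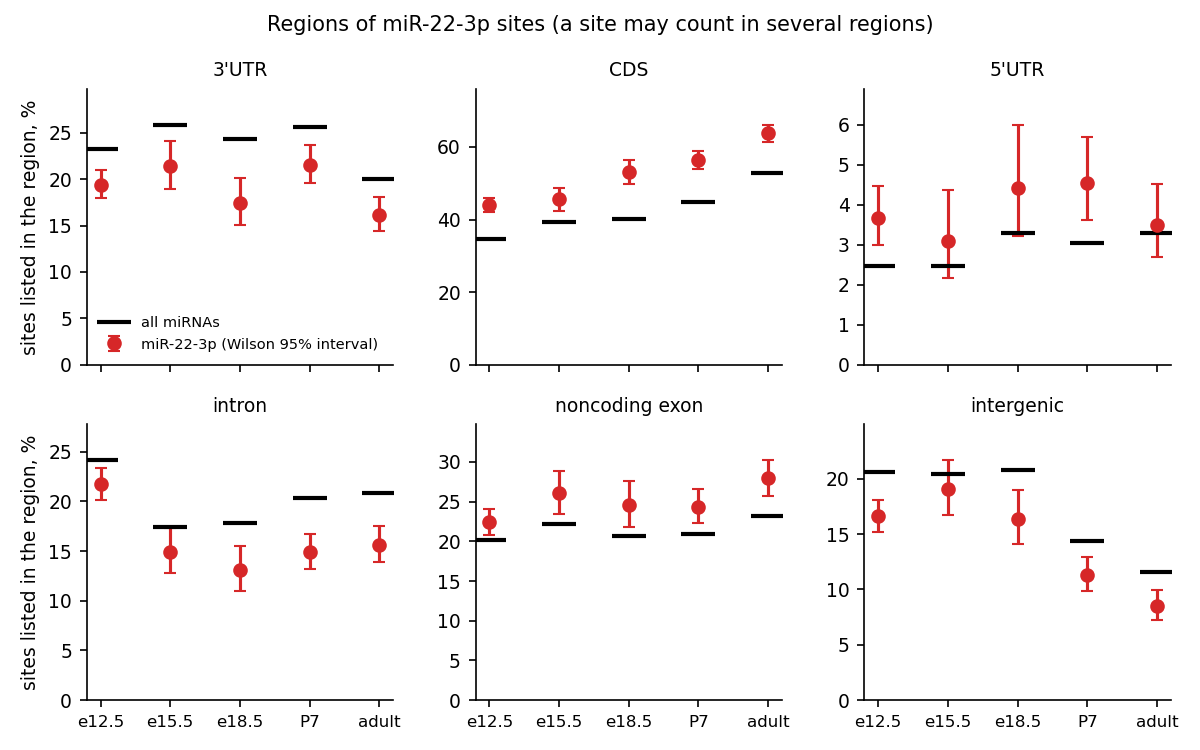
Share of miR-22-3p sites listed in each region (y axis, percent of distinct sites; x axis, stage), with Wilson 95% intervals, and the same share over the sites of all miRNAs (black bars). The CDS points lie above the bars at every stage (63.7% against 52.8% in the adult) and the 3′UTR points below them (16.2% against 20.01%).

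The core hexamer has the same lean in the annotation. In the longest coding sequence of each gene (GENCODE vM21, GRCm38), GCAGCT occurred 0.735 times per kb and was the 62nd most frequent of 4096 hexamers. In the 3′UTRs of the same transcripts it occurred 0.369 times per kb and ranked as the 826th. Within codons, 52.0% of the 2648 CDS sites that could be placed began on the third codon base, which reads as CAG (glutamine) followed by a leucine codon. A start on the first codon base (2 alanine codons) was found for 31.7%, and on the second (AGC, serine) for 16.3%. Among all GCAGCT in the annotated coding sequences these shares were 50.3%, 28.1% and 21.6%, so serine frames were less frequent among the listed sites (16.3%, Wilson interval 14.9 to 17.7).

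Sites of the 8mer type were uncommon. In the 3′UTR, 593 of the 1060 distinct sites were 6mers, 321 were 7mer-m8, 96 were 7mer-A1 and 50 were 8mers. By table, 8mers made up 4.51%, 3.85%, 6.00%, 5.06% and 4.71% of the 3′UTR sites of miR-22-3p from e12.5 to adult. For all miRNAs these shares were 8.41%, 9.71%, 10.3%, 8.92% and 9.58%, which was higher in each table, although the interval at e18.5 (3.19 to 11.0) includes it. 7mer-m8 sites were more frequent than for all miRNAs in the 3′UTR at all 5 stages (24.0% to 33.3% against 22.8% to 23.2%), with intervals that exclude the latter at e12.5, P7 and adult only.

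An adenosine opposite base 1, which 7mer-A1 and 8mer sites need, was found at 13.8% of the 3′UTR sites and 12.02% of the CDS sites, while a guanosine stood there in 44.6% and 53.3%. In all annotated copies of the core, the adenosine followed in 14.9% (3′UTR) and 11.6% (CDS). The guanosine that pairs with base 8 preceded the core at 35.0% of the 3′UTR sites and 29.2% of the CDS sites, and in 29.6% and 25.2% of the annotated copies.

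**Figure D3:**
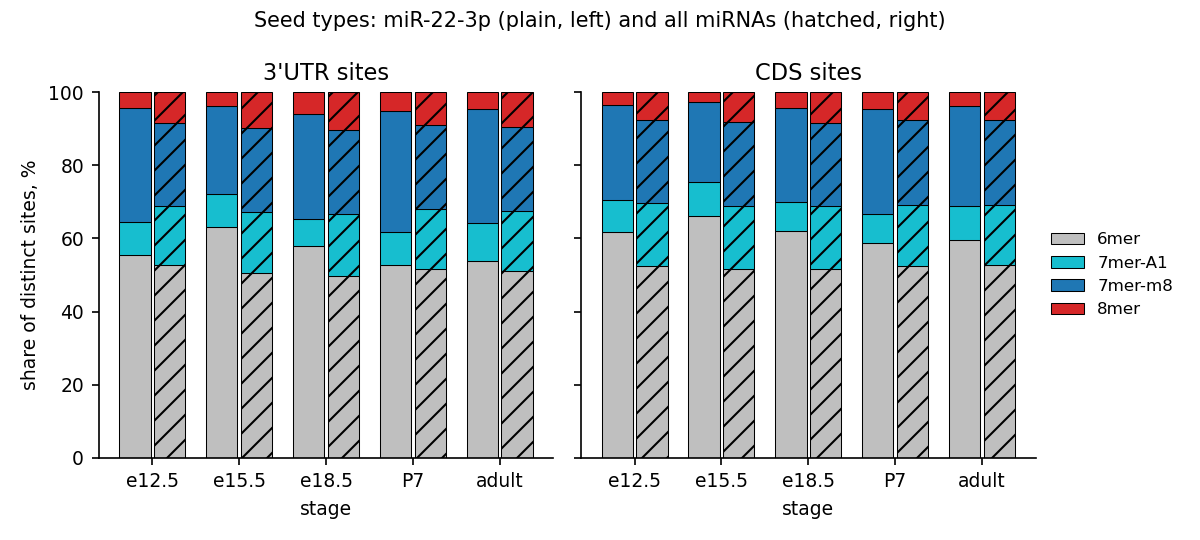
Seed types of distinct sites (y axis, percent; x axis, stage) in the 3′UTR and the CDS for miR-22-3p (plain bars) and for all miRNAs (hatched bars). The 8mer and 7mer-A1 segments of miR-22-3p are thinner than those of all miRNAs, as with 4.71% against 9.58% of 8mers in the adult 3′UTR.

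Conservation scores, which run from 0 to 1, separated the regions rather than the stages. The median over the CDS sites of miR-22-3p lay between 0.979 and 0.996 in the 5 tables, against 0.947 to 0.986 for all miRNAs. In the 3′UTR it was 0.369, 0.549, 0.776, 0.283 and 0.476 from e12.5 to adult, against 0.361, 0.624, 0.469, 0.253 and 0.338. The quartiles of the 3′UTR scores span nearly the whole scale (0.003 to 0.993 at e12.5), so these medians do not order the stages. Of the 50 distinct 3′UTR 8mers, 21 scored at least 0.9 and 21 at most 0.1.

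The predicted duplexes of miR-22-3p had a feature of their own miRNA. In 62.7% of the distinct sites (3466 of 5525), the deposited structure contained base pairs within the miRNA itself. This was so for 76.4% of the 6mers and 27.1% of the 8mers. In the adult table the share was 56.5%, higher than for 503 of 512 other miRNAs, of which the median was 1.75%. Structures with such pairs had a median free energy of -11.4 and those without of -13.7. Whether the deposited energies count pairs within the miRNA was not tested.

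Each site carries a read number, taken here as that of its cluster (a group of overlapping reads) at the highest point. Sites of other miRNAs in the cluster mostly share it, since 88.5% to 94.2% of the clusters, by list, held a single read number. In the 3′UTR the median read number for miR-22-3p was 32, 30.5, 27, 16 and 25 from e12.5 to adult. The sites of all miRNAs had medians of 34, 37, 30, 18 and 26. The read numbers are not scaled to depth, and the summed cluster reads of the tables ranged from 13008703 to 44867326.

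A few positions carried most of the reads at miR-22-3p sites. The 4 highest made up 67.7%, 67.1%, 53.2%, 84.8% and 67.2% of the summed reads from e12.5 to adult, whereas all 3′UTR and CDS sites together made up 17.2%, 23.2%, 30.7%, 12.1% and 22.4%. Apart from a CDS 6mer of Afp (α-fetoprotein, a plasma protein of the fetal liver) with 3258 reads at P7, they were not in mRNA. An intergenic 7mer-m8 position on chromosome 10 had 207241, 53638, 22809, 1089 and 120412 reads, and a 7mer-m8 in the gene listed as Yam1 on chromosome 17 had 154049, 58426, 14439, 5220 and 75905. Both were at their lowest at P7.

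Other positions of this kind lay within other miRNAs, and at P7 these had the most reads. Mature sequences (RefSeq, GRCm38.p6) of some of these miRNAs are printed, with the letters that the search recognised in capitals. The letters are complete in miR-191-5p and miR-1968-5p and lack the final base in miR-30a-3p, where the genome supplies it.
mmu-miR-191-5p: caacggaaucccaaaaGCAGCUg
mmu-miR-30a-3p: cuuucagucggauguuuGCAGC
mmu-miR-1968-5p: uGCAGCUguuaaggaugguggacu
The 6mer at the end of miR-30a-3p had 29786, 18652, 7636, 270838 and 30788 reads from e12.5 to adult. The number given for miR-30a-3p itself was 35509, 22044, 11715, 272495 and 31075. Sites in miRNA genes together took 82.4% of the reads at miR-22-3p sites at P7 (281780 reads, of which 270838 at this position), against 11.6% to 15.1% in the other tables. The position in miR-191-5p had 15302, 5370, 6733, 10554 and 12192 reads, and the number of miR-191-5p was 22135, 10190, 8344, 10635 and 12280. At P7 and in the adult the cluster reads at both positions came near the number of the miRNA encoded there, while in the embryonic tables, where the numbers of the 2 lists were added, they were lower. A 7mer-A1 listed in miR-222-3p, whose sequence is not printed, had 22935 reads at e12.5 and was in no other table.

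In mRNA, 926 genes had a 3′UTR site of miR-22-3p in any table, which is 8.37% of the 11065 genes with a 3′UTR site of any miRNA. CDS sites were found in 2192 genes, 16.1% of 13595. Both kinds were present in 374 genes. By stage, 446, 194, 144, 318 and 241 genes had a 3′UTR site and 972, 401, 428, 797 and 881 a CDS site. The lists alone gave 115 and 392 genes with a 3′UTR site (e12.5), 26 and 179 (e15.5) and 85 and 73 (e18.5), so that with the first list e12.5 was below P7. Only 6 genes had a 3′UTR site in all 5 tables, and 42 genes a CDS site.

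A 3′UTR site at the same position in all 5 tables was found 5 times. They were in Ctnnb1, which encodes β-catenin, Hnrnpk, an RNA-binding protein, Stradb, a pseudokinase that activates the kinase Lkb1, Myh9, a non-muscle myosin heavy chain, and Ttr, the thyroid hormone carrier transthyretin made by hepatocytes. Only Ttr and Hnrnpk were listed as 3′UTR alone, since the positions in Ctnnb1, Stradb and Myh9 are CDS in other transcripts. The 6mer of Ttr had 39, 132, 11, 136 and 166 reads from e12.5 to adult, and that of Ctnnb1 had 92, 32, 11, 81 and 73. The 7mer-m8 of Myh9 had 101, 6, 311, 106 and 57 reads, highest at e18.5. The values of Hnrnpk were 92, 35, 7, 8 and 18, and those of Stradb 32, 8, 5, 8 and 30. None of these 5 sites was an 8mer, and 4 of them had conservation scores of at least 0.995, while Ttr scored 0.002.

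The clusters of these sites differed in what else they held. In Stradb, a miRNA of higher number than miR-22-3p was listed in the same cluster at e12.5 only (miR-141-3p), and in Hnrnpk also at e12.5 only (miR-335-5p). In Myh9, 6 or 7 such miRNAs were listed in every table, headed by miR-16-5p.

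Of the 50 distinct 3′UTR 8mers, 37 were listed in 1 table, 8 in 2 and 5 in 3, and none in 4 or 5. Over all 1060 3′UTR sites of miR-22-3p, 794 were in 1 table (74.9%, against 74.0% of the 8mers) and 23 in 4 or 5. The 8mer of Arrb1, which encodes β-arrestin 1, an adaptor that desensitises G protein-coupled receptors, had the most reads, 1122 in the e12.5 table and 444 in the e15.5 table (25.01 and 26.9 per 1000000 summed cluster reads, with the reads of both lists added), and was not listed later. Its cluster held 29 other miRNAs at e12.5, of which 1 (miR-431-5p) had a higher number than miR-22-3p, and 6 others at e15.5, of which none had. The 8mer of Slc2a1, the glucose transporter of erythroid and many other cells, had 228 reads at e12.5 and 30 at P7. Its cluster held 6 miRNAs of higher number at e12.5, headed by miR-378a-3p, and none at P7.

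The 8mer of Erbb3 had most of its reads in later tables. Erbb3 is a receptor of the EGF receptor family and a reported miR-22 target. Its fully conserved 8mer (score 1.0) had 12 reads at e15.5, 152 at P7 and 164 in the adult. A CDS 7mer-A1 of Erbb3 (score 0.987) had 180 reads and a CDS 6mer 10, both at e18.5 alone. The cluster of the 8mer also held 1 or 2 miRNAs of higher number in each of its 3 tables, miR-409-3p at e15.5 and P7, miR-335-5p at P7 and miR-802-5p in the adult. The 8mer of Rell1, a protein of the RELT receptor family, had 18 reads at e18.5, 93 at P7 and 14 in the adult, and no miRNA of higher number in its cluster, but its score was 0.032. The remaining 8mers in 3 tables were those of Zfp740, a zinc finger protein (83, 28 and 26 reads at e18.5, P7 and adult), Ywhaz, a 14-3-3 protein (12, 13 and 9 at e12.5, e18.5 and P7), and Hnrnpl, a splicing factor. The Hnrnpl site had 759 reads at e12.5, 425 at e18.5 and 749 in the adult, and is coding in other transcripts. Per 1000000 summed cluster reads, scaled as above, the site had 16.9, 32.7 and 30.1. Its cluster held 5, 3 and 2 miRNAs of higher number in these tables, headed by miR-122-5p.

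Further 8mers were among the 3 with most reads of a table. Rab5b, an endosomal GTPase, had 53 reads and Rgs2, a regulator of G protein signalling and reported miR-22 target, had 31, each at e15.5 alone. The 8mer of Tmem33 (score 0.998) tied with Rgs2 at 31 reads at e15.5, and had 25 at e12.5. Mkrn1, a ubiquitin ligase, had 116 at e18.5 alone, Xrn1, the 5′ to 3′ exonuclease, 20 at e12.5 and 60 at P7, and Eif4g1, the scaffold of translation initiation, 16 at P7 and 60 in the adult. Mkrn1 and Xrn1 had low conservation scores (0.006 and 0.031), while Rab5b, Rgs2 and Eif4g1 scored 1.0. The Eif4g1 position is coding in other transcripts.

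**Figure D4:**
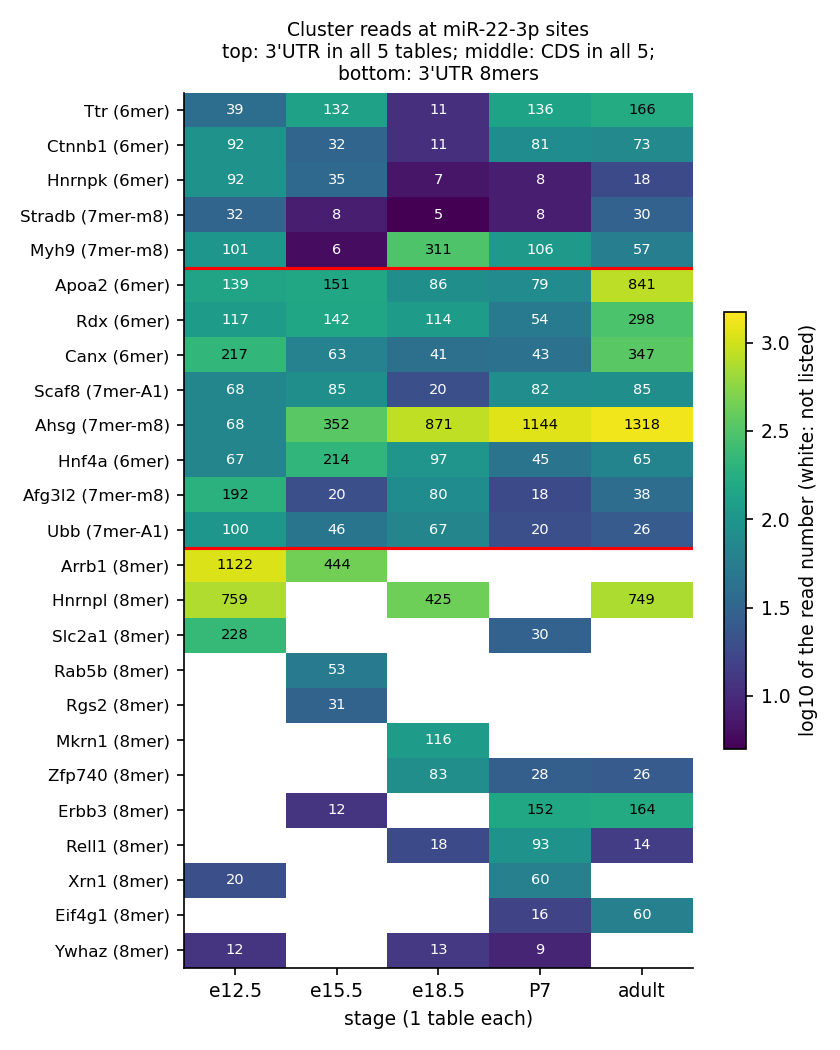
Read number listed (numbers and colour, log10 scale) at miR-22-3p sites in each of 5 tables (columns). Shown are 3′UTR sites in all tables, the 8 leading CDS sites in all tables and 3′UTR 8mers. White means not listed. Reads are not scaled to depth. The 8mers occupy at most 3 columns, with Arrb1 at e12.5 and e15.5 (1122 and 444 reads) and Erbb3 strongest at P7 and adult (152 and 164).

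Several sites per 3′UTR were rare. Of the 926 genes, 811 had 1 distinct site and 115 had more. Slc25a37, the mitochondrial iron importer of erythroid cells, had the most, with 4. Its 4 sites are printed to show that they differ in type and context.
Slc25a37, 7mer-m8, chr14:69244856-69244862 (-): catccttacaaagaGGCAGCTg
Slc25a37, 6mer, chr14:69245101-69245106 (-): gccggggcactggccGCAGCTg
Slc25a37, 6mer, chr14:69243201-69243206 (-): agatGCAGCTt
Slc25a37, 7mer-A1, chr14:69243180-69243186 (-): ttttggttttgtccaGCAGCTA
The 7mer-m8 had 380, 398 and 153 reads in the 3 embryonic tables. The other sites were listed at e12.5 or e15.5 only, with 43 to 277 reads, and none of the 4 was listed at P7 or in the adult. The first pair is also coding in another transcript. A further 19 genes had 3 distinct 3′UTR sites, Arrb1, Ctnnb1, Slc2a1 and Rell1 among them.

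In coding sequence, 30 sites were at the same position in all 5 tables. They were ranked by their lowest value over the tables, in reads per 1000000 summed cluster reads scaled as above. The leading 8 were in Apoa2, Rdx, Canx, Scaf8, Ahsg, Hnf4a, Afg3l2 and Ubb. Ahsg, which encodes the plasma protein fetuin-A of hepatocytes, had 68, 352, 871, 1144 and 1318 reads from e12.5 to adult. Per 1000000 summed cluster reads, the adult value (53.0) was below that of P7 (69.3). Apoa2, an apolipoprotein of high density lipoprotein, had 139, 151, 86, 79 and 841 reads. Hnf4a, a master transcription factor of hepatocytes, had 67, 214, 97, 45 and 65 at a site scored 1.0. Between 5 and 9 miRNAs of higher number, headed by miR-16-5p, were listed in its cluster in every table, and 3 to 5 in that of Ahsg, headed by miR-27b-3p in 4 tables.

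The other 5 did not share a pattern. Rdx (radixin, which links actin to the membrane) had 117, 142, 114, 54 and 298 reads with no miRNA of higher number in its cluster at any stage. Canx, a chaperone of the endoplasmic reticulum, had 217, 63, 41, 43 and 347, and Scaf8, a protein that binds RNA polymerase II, had 68, 85, 20, 82 and 85. Afg3l2, a mitochondrial protease, had 192, 20, 80, 18 and 38, and the polyubiquitin gene Ubb had 100, 46, 67, 20 and 26. Ubb is made of near-identical repeats, so the place of its reads is uncertain. In 5′UTRs, 4 sites were in all 5 tables, and the one in Ctsl, which encodes the lysosomal protease cathepsin L, had 186, 212, 365, 1188 and 1952 reads; these 4 were named after their values were seen.

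Genes of lists drawn up by known roles, but with earlier results of these data known, were then looked up, beside 8.37% (3′UTR) and 16.1% (CDS) over all genes. Genes with more clusters have more places for a site, and genes with a miR-22-3p site had a median of 19 clusters in the 3′UTR and 22.5 in the CDS over the 5 tables, against 5 and 9 for all genes. The part of cluster number in the counts below was not tested.

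Of 30 reported miR-22 targets, listed from general knowledge, 25 had a 3′UTR cluster. A miR-22-3p site was there in 5 of these, namely Hdac4, Erbb3, Rgs2, Max and Acly. Hdac4, a class II histone deacetylase, had a 7mer-m8 of score 1.0 with 106 reads at e18.5 and 22 in the adult. Max, the partner of Myc, had a 7mer-m8 of score 1.0 with 31 reads in the adult alone, and Acly, which makes cytosolic acetyl-CoA, a 7mer-m8 with 107 reads at e12.5 alone. Sirt1, Tet2 and Ppargc1a had 3′UTR clusters, but none with a listed miR-22-3p site. In the CDS, 6 of 28 had a site, among them Tet2, which oxidises methylcytosine (6mers with 14 reads at P7 and 30 in the adult), Ppara, the fatty acid sensor (33 at e12.5 and 43 at P7), Ccna2, cyclin A2 (31 at e12.5 and 5 at e18.5), and Sp1. The median cluster number of the list was 17 in the 3′UTR and 13 in the CDS.

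Of 46 genes of lipid and glucose metabolism, 13 of 42 with a 3′UTR cluster and 18 of 45 with a CDS cluster had a site (31.0% in the 3′UTR), at median cluster numbers of 19.5 and 32. Named members had sites in several tables. Hmgcs1, an enzyme of cholesterol synthesis, had a CDS 6mer of score 1.0 with 64 reads at e12.5, 45 at e15.5 and 34 in the adult. Fasn, fatty acid synthase, had 4 CDS sites, 3 of them in the adult with 45, 122 and 130 reads. Srebf1, the transcription factor of lipogenesis, had a 7mer-m8 with 5, 46 and 53 reads at e18.5, P7 and adult and a 6mer with 15, 30 and 16 at e15.5, P7 and adult. Apob, the structural protein of very low density lipoprotein, reached 276 reads in the adult at a 7mer-m8 that had 16, 52 and 9 at e12.5, e15.5 and P7. G6pc, glucose-6-phosphatase, had a 6mer of score 1.0 with 74, 146 and 63 reads at e18.5, P7 and adult. Acacb, Dgat1 and Irs2 had CDS sites in at least 2 tables as well. In the 3′UTR, Lpin2, a phosphatidate phosphatase, had different 6mers at e12.5 (38) and e15.5 (41).

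Erythroid genes carried sites chiefly in the embryonic tables. Of 23 genes, 5 had a 3′UTR site and 13 a CDS site (21.7% and 56.5%), at median cluster numbers of 20 and 31. Slc4a1, the anion exchanger band 3 of red cells, had a 3′UTR 7mer-m8 with 1102, 336, 104 and 21 reads from e12.5 to P7 and no entry in the adult. Its e12.5 cluster held 83 other miRNAs, 19 of them of higher number than miR-22-3p and headed by miR-122-5p, and the later clusters held 1, 5 and none of higher number. Alas2, the first enzyme of erythroid haem synthesis, had a CDS 7mer-m8 with 179, 200, 211 and 41 reads and none in the adult. Nfe2, a transcription factor of globin genes, had 513, 279 and 19 reads from e12.5 to e18.5, and Tfrc, the transferrin receptor, 444 and 240 in the first pair of these tables.

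The membrane skeleton genes Sptb (8 distinct CDS sites), Ank1 and Epb41 were listed mostly at e12.5 and e15.5. Foxo3 had 131 and 60 reads at e15.5 and e18.5. None of the 8 erythroid genes with CDS sites in at least 2 tables had such a site in the adult table, where 42.5% of all 798 genes of that kind had none (339 genes). Kit, a receptor of blood progenitors, was named after its values were seen, and its CDS 6mer was listed in the adult alone, with 21 reads. The summed cluster reads on 8 erythroid markers, globins included, were 61898, 80899, 96905, 34545 and 1632 per 1000000 (overlapping clusters of the lists joined) from e12.5 to adult, with Slc4a1 among those at 0 in the adult. The part of this in the sites' stages was not tested, and in whole liver fewer cells of a type and less RNA per cell cannot be told apart. The 2 α-globin genes each had a 6mer with 3364 reads at e15.5, and being near-identical copies they cannot be told apart.

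Chromatin regulators and cell cycle genes were looked up in the same way. Of the chromatin genes, 2 of 37 had a 3′UTR site (Hdac4 and Chd4, 5.41%) and 12 of 40 a CDS site, at median cluster numbers of 7 and 20. Arid1b, a subunit of the SWI/SNF remodeller, had a CDS 7mer-m8 with 131 reads at e12.5 and 5 in the adult, and Arid1a a 6mer with 42 at P7 and 40 in the adult. Tet3, Kmt2a and Kmt2d had CDS sites at different positions in different tables. Of the cell cycle genes, 4 of 26 had a 3′UTR site and 5 of 26 a CDS site (15.4% and 19.2%), at a median cluster number midway between 14 and 17 in the 3′UTR and of 23 in the CDS. The CDS 6mer of Ccnb1, cyclin B1, was in 4 tables with 7, 77, 38 and 6 reads from e12.5 to P7, and Mxd1, a Max partner, had different 3′UTR sites at e12.5 (45) and e18.5 (7).

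Most clusters with a miR-22-3p site held sites of several other miRNAs as well, so that Ago in them cannot be assigned to miR-22-3p alone. The median number of other miRNAs per cluster was 4 to 7, in either region and every table. A miRNA of higher number than miR-22-3p had a site in 65.3%, 51.2%, 56.0%, 48.2% and 36.1% of the 3′UTR clusters from e12.5 to adult. In the CDS these shares were 64.6%, 56.1%, 51.1%, 48.0% and 36.1%. The adult share was the lowest, in the table where miR-22-3p also ranked highest. A site of the 10 most abundant miRNAs was in 13.3% to 17.5% of the clusters, with intervals that overlap across the stages.

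**Figure D5:**
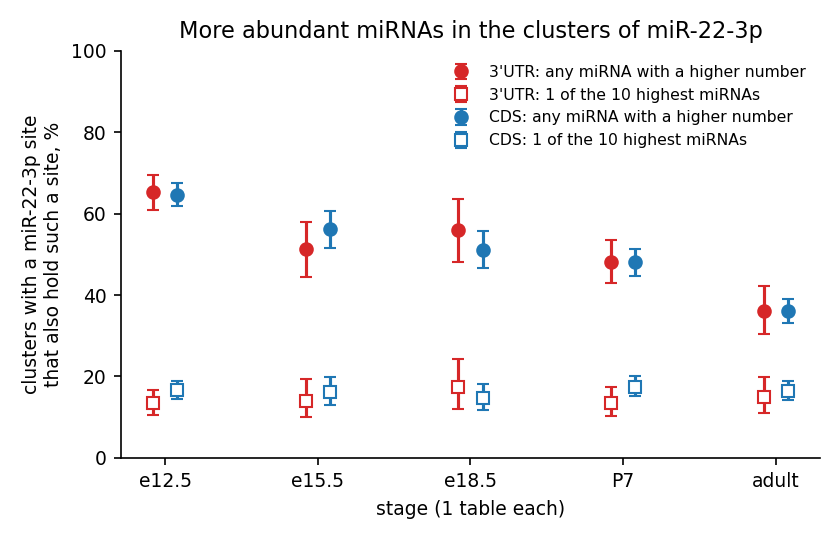
Share of clusters with a miR-22-3p site that also hold a site of a miRNA with a higher number (filled circles) or of the 10 miRNAs with the highest numbers (open squares), in percent (y axis) by stage (x axis), with Wilson 95% intervals. The filled circles run from 65.3% (3′UTR, e12.5) to 36.1% (adult), while the squares stay between 13.3% and 17.5%.

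Part of this sharing was by the same bases. Another miRNA was listed at positions that overlap the core of miR-22-3p for 82.9%, 78.9%, 75.03%, 96.3% and 90.9% of the sites from e12.5 to adult. The most frequent were miR-666-3p (28.1% to 30.3% in the 4 tables up to P7), miR-6958-3p (49.3% at P7) and miR-3966 (33.3% at P7 and 31.7% in the adult). The seeds of the first 2 are shown in capitals because their complements run into the core.
mmu-miR-666-3p: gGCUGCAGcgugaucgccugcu
mmu-miR-6958-3p: uCAGCUGCcucuugccaucacag
Both had lower numbers than miR-22-3p, with values of 159 to 1611 for miR-666-3p where listed and of 37 for miR-6958-3p at P7. Overlap with a miRNA of higher number than miR-22-3p was found for 27.5%, 22.3%, 24.2%, 18.9% and 11.0% of the sites.

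The share of clusters with a miR-22-3p site was then compared between the e12.5 and adult tables, the ends of the series. In the 3′UTR, 487 of 39452 clusters at e12.5 (1.23%, Wilson interval 1.13 to 1.35) and 255 of 15914 in the adult (1.60%, 1.42 to 1.81) held a site. The log2 odds ratio of adult over e12.5 was 0.38 ± 0.11 (SE), with an adjusted p of 0.00313 by a two-sided Fisher's exact test over all 467 miRNAs tested. In the CDS, 1106 of 58352 clusters (1.90%) and 1004 of 39007 (2.57%) held a site, a log2 odds ratio of 0.45 ± 0.06 (SE) with an adjusted p of 1.71e-11 by the same exact test over 478 miRNAs. These tests compare 2 tables and not the stages, and differences of this kind were common, since 40.3% of the miRNAs tested in the 3′UTR and 52.7% of those in the CDS passed the threshold of 0.05. The odds ratio of miR-22-3p was above that of 377 of the miRNAs in the 3′UTR and 392 in the CDS.

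The share was also taken over genes in place of clusters. A site was found in 446 of 8411 genes with a 3′UTR cluster at e12.5 (5.30%, 4.84 to 5.80) and in 241 of 5752 in the adult (4.19%, 3.70 to 4.74), a log2 odds ratio of -0.36 ± 0.12 (SE) with an adjusted p of 0.00339 by Fisher's exact test. The e12.5 table held 4.69 3′UTR clusters per gene and the adult one 2.77, and the median log2 odds ratio over all miRNAs was -0.79 by genes and -0.05 by clusters. By genes 417 of the 467 miRNAs passed the threshold, and miR-22-3p was above 376 of those tested, against 377 by clusters. In the CDS the gene shares were 9.08% and 9.53%, with an adjusted p of 0.329 by the same exact test. At the stages between, 1.14% (e15.5), 0.929% (e18.5) and 1.14% (P7) of the 3′UTR clusters and 1.56%, 1.70% and 1.68% of the CDS clusters held a site.

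The tables fitted their label as liver. Overlapping clusters of the lists were joined for this check. Of 8 hepatocyte markers, 7 had clusters at e12.5 and 8 at the other stages, with summed cluster reads of 744, 2325, 7281, 8851 and 10441 per 1000000 from e12.5 to adult. Clusters on 4 endothelial, 4 macrophage, 4 stellate and 4 cholangiocyte markers summed to at most 218 per 1000000 for any of these cell types and stages. Cd68 and Adgre1 (macrophage) were at 0 at e12.5 and e15.5, and all 4 cholangiocyte markers at e15.5.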

How the data were processed

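Ago-bound RNA of mouse liver was analysed from 1 deposited table per stage. The authors preprocessed reads with the FASTX-Toolkit, mapped them with Bowtie to mm10 and the miRNA precursors of miRBase v19, grouped overlapping reads into clusters and scanned these for seed matches. The submitters' processing notes also name mm9, but all positions matched mm10. Per the labels and values, the deposited read numbers are a signal, unscaled and at least 5. They were taken as the peak height of a cluster, although the sites of a cluster did not always share 1 number. Conservation and free energy are deposited scores of unstated method. The meaning of the number in the interaction name is not given in the sources used here. Reads without molecular identifiers are not independent molecules, so intervals cover counting error only.

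Here, entries were merged to distinct sites by core position and strand, and overlapping clusters of the 2 lists were joined. For a miRNA with several gene copies, the highest number was used. The lists' numbers were added, and the higher read number of a site was kept. The summed cluster reads used to scale sites add both lists. The total of miRNA reads per table was 7781484 to 25546696. Shares carry Wilson 95% intervals. Cluster shares were compared with two-sided Fisher's exact tests for miRNAs listed in both tables with at least 50 such clusters in sum, with Benjamini-Hochberg adjustment. The test was checked on simulated independent counts without variation between libraries, so the check cannot speak to such variation. At a planted log2 odds ratio of 0.5, it recovered 103 of 155 changes in the 3′UTR and 141 of 159 in the CDS. It called 0 of 312 and 6 of 319 unchanged miRNAs. Sites were named by rule: 3′UTR sites (up to 12 genes) and CDS sites (8) in all tables with the highest lowest value per 1000000 of summed cluster reads, per table the 3 3′UTR 8mers with most reads, the most conserved 8mers (8) in at least 3 tables, genes with most 3′UTR sites, members of gene lists with sites in at least 2 tables, and the 5 nearest stage profiles. Max, Acly and Rgs2 and the positions with most reads were added after their values were seen. Members and lists were chosen with earlier results of these data known. Alternatives were 10 reads, at least 7 matched bases, either list alone, genes for clusters, a depth-scaled read minimum, sites of 1 region, other totals and summed gene copies. For Ago2 the study describes 2 biological replicates, and its supplement lists a second e18.5 library, but the labels give 1 sample per stage, and whether the lists of the embryonic tables are such replicates is not given in the sources used here. Python 3.11.15, pandas 2.3.3, scipy 1.17.1 and pysam were used. Some members of the gene lists are counted in them but not reported here by name.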

Additional observations from a re-analysis of the deposited data

How the results depend on the processing

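The share of miRNA reads moved with each choice of total. With the library totals of the study it was 0.00970%, 0.0234%, 0.0202%, 0.0183% and 0.0393% from e12.5 to adult, so that adult became the highest. The e18.5 value divides both lists by the total of the first of 2 e18.5 libraries, and which lists belong to it is unknown. With numbers summed over gene copies it was 0.0238%, 0.0560%, 0.0481%, 0.0238% and 0.0359%. The first list alone gave 0.0487% at e12.5 and 0.0671% at e18.5, and the second 0.0196% and 0.0280%. Counting genes for clusters, which shifted the median over all miRNAs to -0.79 and -0.36, turned the 3′UTR log2 odds ratio from 0.38 to -0.36 and lowered that of the CDS from 0.45 to 0.077 (adjusted p = 0.329 by the exact test), with 376 and 391 miRNAs below miR-22-3p against 377 and 392 by clusters, while the other 5 alternatives kept direction and call of both (0.35 to 0.59 and 0.43 to 0.61). With at least 7 matched bases, 2222 distinct sites and 438 genes with a 3′UTR site remained of 5525 and 926, and with the first lists 3644 and 612. The 3′UTR share over all tables, 19.2%, was 15.8% for sites of 1 region. With the first list alone the 8mer share over all regions fell from 3.98% to 1.90% at e12.5 and from 3.19% to 1.41% at e15.5. Over all tables the 8mer share and the median conservation did not move beyond their spread. No paired analysis was possible because each stage has 1 sample.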
